A study of Mus musculus with 6 samples.

Results

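Imprinted genes are expressed mainly from the chromosome inherited from either the mother or the father, and they were compared here between B16-F1 cells and D5.1G4 cells, both mouse melanoma lines. The members are 39 known mouse imprinted genes, and a gene was included when the accession of an array probe mapped to its symbol. Of these genes, 37 had a probe, out of 20659 genes with a probe on the array, while H19 and Rian had none under this matching and were not analysed here. In total 61 probes represented the 37 genes, and 18 of the genes had more than 1 probe. The comparison asks how the RNA of these genes differs from one line to the other.

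B16-F1, which belongs to the B16 family of melanoma lines, and D5.1G4, for which the labels give no derivation, were each measured on 3 one-colour arrays. Per the labels, both lines were untreated and were grown for 24 h in the same serum-containing medium, and no engineered allele is named for either line. The labels do not state whether replicates were separate cultures, so p-values speak only of the spread among these samples, and that spread may be technical. All 7 melanocyte markers examined, namely Mitf, Sox10, Tyr, Tyrp1, Dct, Pmel and Mlana, were well above background on every array of both lines. None of the tested markers of other cell types was called. Of 4 fibroblast markers, Col3a1, Pdgfra and Thy1 were not well above background on any array, and Lum was above it on 1 B16-F1 array. The endothelial genes Kdr and Pecam1 and the keratinocyte genes Krt5 and Krt14 were above background on all 6 arrays, and Cdh5, Tek, Krt1 and Krt10 on none. Of the macrophage genes, Csf1r was above background on all 6 arrays, Adgre1 on 3 B16-F1 arrays and 2 D5.1G4 arrays, Ptprc on 2 B16-F1 arrays, and Lyz2 on none. Between 53.4% and 62.0% of an array's spots were well above background, with the highest shares, 62.0% and 61.7%, on B16-F1 replicates 2 and 3. Those replicates were scanned together (scan 1), B16-F1 replicate 1 was scanned with D5.1G4 replicates 2 and 3 (scan 2), and D5.1G4 replicate 1 was scanned alone (scan 3).

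In mammals imprinting is set in the germ line by DNA methylation of control regions, and it is kept in body cells by DNA methyltransferases and by zinc finger proteins that recruit repressive chromatin. Most imprinted genes lie in domains in which a control region acts on several neighbours, often through a long non-coding RNA that silences genes on the same chromosome. Several act on growth: Igf2, Mest and Peg3 are paternally expressed, whereas Cdkn1c, Igf2r and Phlda2 are maternally expressed and restrain it. An array measures the total RNA of a gene, so the parental alleles cannot be told apart, and neither can fewer expressing cells from less RNA per cell.

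The promoters of genes that differed between the lines are shown first, where a sequence was available. The RefSeq table for GRCm38.p6 held a promoter for 33 of the 39 genes. It held none for Cdkn1c and Peg10, which were also lower in B16-F1. The sequences cover the 250 bases before the annotated start, 5′ to 3′ on the strand of the gene, with each CpG dinucleotide, the site of DNA methylation, in capitals. The first 3 belong to genes of the Kcnq1 domain that were lower together in B16-F1, and the others to Mest, which was higher, and Plagl1, which was lower.
Kcnq1ot1, chr7:143296548-143296797, minus strand: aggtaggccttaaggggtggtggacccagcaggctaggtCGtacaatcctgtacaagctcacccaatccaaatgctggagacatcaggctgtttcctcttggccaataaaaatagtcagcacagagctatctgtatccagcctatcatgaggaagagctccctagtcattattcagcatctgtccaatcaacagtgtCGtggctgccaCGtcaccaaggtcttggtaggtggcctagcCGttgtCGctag
Slc22a18, chr7:143473539-143473788, plus strand: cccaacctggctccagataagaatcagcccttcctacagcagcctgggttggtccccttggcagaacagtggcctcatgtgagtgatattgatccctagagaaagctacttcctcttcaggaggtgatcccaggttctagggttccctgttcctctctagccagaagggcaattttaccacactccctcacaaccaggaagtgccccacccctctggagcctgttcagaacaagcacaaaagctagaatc
Phlda2, chr7:143502525-143502774, minus strand: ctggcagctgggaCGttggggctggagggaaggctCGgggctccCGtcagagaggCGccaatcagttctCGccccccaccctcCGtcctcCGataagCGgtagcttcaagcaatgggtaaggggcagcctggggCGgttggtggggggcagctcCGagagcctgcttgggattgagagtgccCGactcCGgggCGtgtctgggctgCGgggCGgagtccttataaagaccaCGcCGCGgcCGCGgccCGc
Mest, chr6:30737800-30738049, plus strand: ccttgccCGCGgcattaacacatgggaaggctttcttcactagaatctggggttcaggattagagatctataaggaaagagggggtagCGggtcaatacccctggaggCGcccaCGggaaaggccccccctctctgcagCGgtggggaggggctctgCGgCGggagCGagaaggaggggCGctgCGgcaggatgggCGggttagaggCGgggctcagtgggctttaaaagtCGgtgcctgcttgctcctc
Plagl1, chr10:13090582-13090831, plus strand: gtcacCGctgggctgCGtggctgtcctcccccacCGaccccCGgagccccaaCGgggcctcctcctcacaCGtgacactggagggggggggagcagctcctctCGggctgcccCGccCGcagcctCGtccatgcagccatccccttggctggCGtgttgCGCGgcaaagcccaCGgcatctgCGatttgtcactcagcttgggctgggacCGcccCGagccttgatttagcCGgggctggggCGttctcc

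These promoters differed widely in CpG content. The Phlda2 window held 21 CpG dinucleotides, Plagl1 19, Mest 14 and Kcnq1ot1 5, and the Slc22a18 window held 0, against a median of 6 over the 32851 promoters of the table. The letters TGCCGC, the motif bound by the imprint-protecting factor ZFP57, were searched on both strands. They occurred 2 times in the Mest window shown and 1 time in the Plagl1 window, and not in the windows of Kcnq1ot1, Slc22a18 and Phlda2. Of all promoters in the table, 8.68% held the motif, and of the 51 promoters of the imprinted genes, some of which overlap, 17.6% (9) did. The motif contains a CpG, and the median CpG count was 10 in the imprinted windows, against 6 over all promoters. These shares are therefore not compared at like CpG content. A Mest start further upstream (chr6:30733256-30733505) held 7 CpG dinucleotides and 0 matches. A match is a description of these letters only.

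Of the 37 genes with a probe, 23 were tested, having been detected (well above background) on 3 or more of the 6 arrays. In B16-F1 relative to D5.1G4, 1 of them, Mest, rose and 6 fell: Cdkn1c, Kcnq1ot1, Slc22a18, Phlda2, Peg10 and Plagl1. A gene was called when it differed at least 2-fold with an adjusted p of 0.05 or less. Calls made up 30.4% of the tested imprinted genes, against 15.2% of all 18441 features tested, of which 6.28% were called higher and 8.89% lower. Cdkn1c, Kcnq1ot1, Igf2 and Magel2 were tested on the strength of arrays of a single line, so these shares support nothing about the list. At an adjusted p of 0.05 or less alone, 12 of the 23 passed, where 34.9% of all features did. The median log2 difference of the tested imprinted genes was -0.11, and that of all features was below 0.01 in size, at -0.0042. Maternally expressed genes gave 3 calls among 9 tested (0 higher, 3 lower) and paternally expressed genes 4 among 13 (1 higher, 3 lower).

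**Figure D1:**
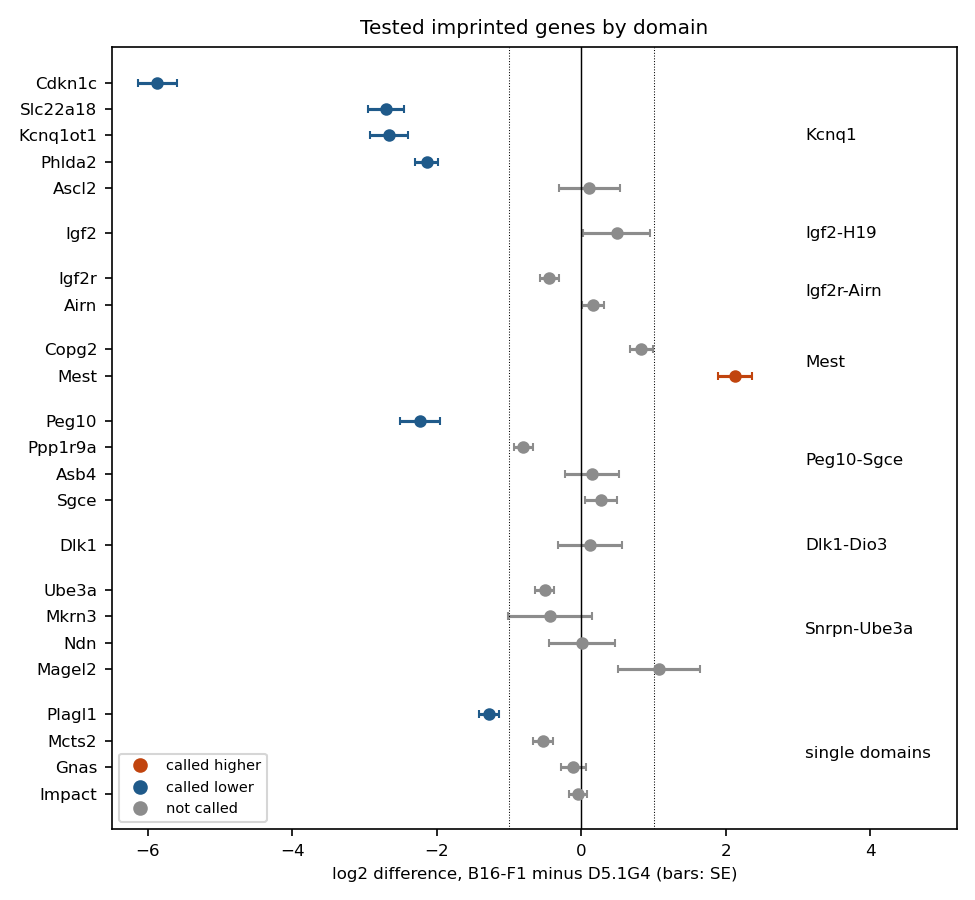
Log2 difference (B16-F1 minus D5.1G4, x axis) of the 23 tested imprinted genes, grouped by domain, with bars for the SE and dotted lines at a 2-fold difference. Of the 5 genes of the Kcnq1 domain 4 lie left of the lower line, and Mest is the only called gene to the right, at 2.13.

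The Kcnq1 domain on chromosome 7 showed the most calls. Of its 6 members 5 were tested, and 4 of these fell in B16-F1, where 8.89% of all features were called lower. Cdkn1c and Kcnq1ot1 were tested through D5.1G4 arrays alone, so this count supports nothing about the domain. The 4 genes were the non-coding RNA of the domain, Kcnq1ot1, and 3 maternally expressed protein-coding genes. Kcnq1ot1 is made from the paternal chromosome and silences its neighbours there. The values below are log2 signals relative to the 75th percentile of the array.

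Cdkn1c encodes an inhibitor of cyclin-dependent kinases that holds cells in G1. Its level was -6.80, -7.55 and -7.17 on the B16-F1 arrays, against -1.49, -1.59 and -0.85 on the D5.1G4 arrays. The gene was well above background on no B16-F1 array and on every D5.1G4 array, and the groups did not overlap. Cdkn1c was therefore at least 20.3-fold lower in B16-F1 (measured means -7.18 ± 0.38 in B16-F1 and -1.31 ± 0.40 in D5.1G4, SD, n = 3 each), with an adjusted p of 5.98e-05. This bound, like those that follow, replaces the dim line's signal by the lowest detected signal of each array where that is higher. With normexp background correction the call was lost (log2 difference -2.51, adjusted p = 0.0585). The bound, 4.34 on the log2 scale, therefore does not hold under that correction.

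Kcnq1ot1 gave -5.65, -6.37 and -5.93 in B16-F1, against -2.95, -3.71 and -3.30 in D5.1G4. As with Cdkn1c, it was above background on 0 B16-F1 arrays and on all 3 D5.1G4 arrays, and it was at least 5.03-fold lower in B16-F1 (adjusted p = 0.00086). Its other, dimmer probe was detected on 0 B16-F1 arrays and on 2 D5.1G4 arrays, and was not tested. The call was lost with normexp, at -0.86 (adjusted p = 0.456). Within scan 2, which holds 1 B16-F1 array, the log2 difference was -2.15. The bound, 2.33 on the log2 scale, therefore holds for the main processing and not under these settings.

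Slc22a18, a membrane transporter of the organic cation family, was well above background on every array of both lines. Its level was 1.26, 0.83 and 0.40 in B16-F1, against 3.26, 3.67 and 3.66 in D5.1G4, with no overlap. The log2 difference was -2.70 (SE 0.25, adjusted p = 0.00067), a level 6.50-fold lower in B16-F1.

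Phlda2, a small pleckstrin homology protein that limits growth of the placenta, was also measured above background throughout. The B16-F1 arrays gave -2.79, -3.05 and -3.13, all below the D5.1G4 values of -0.90, -1.03 and -0.61. The fold was 4.41 (log2 difference -2.14, SE 0.16, adjusted p = 0.000338). Within scan 2, which holds replicate 1 as its single B16-F1 array, the log2 differences were -5.58 for Cdkn1c, -2.15 for Kcnq1ot1, -2.40 for Slc22a18 and -1.97 for Phlda2, and each was called with scan as a block, a fit whose difference equals that of scan 2 and so rests on 1 B16-F1 array against 2 D5.1G4 arrays.

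The remaining genes of the domain did not pass. Ascl2, a basic helix-loop-helix factor of the trophoblast, gave -6.17, -4.68 and -4.89 in B16-F1, against -5.62, -5.51 and -4.95 in D5.1G4, and the lines overlapped (log2 difference 0.11, SE 0.42, adjusted p = 0.859). It was above background on 2 B16-F1 arrays and 1 D5.1G4 array, and its difference became -0.94 with scan as a block. Kcnq1, the potassium channel gene within which the non-coding RNA starts, was not detected on any array and was not tested.

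**Figure D2:**
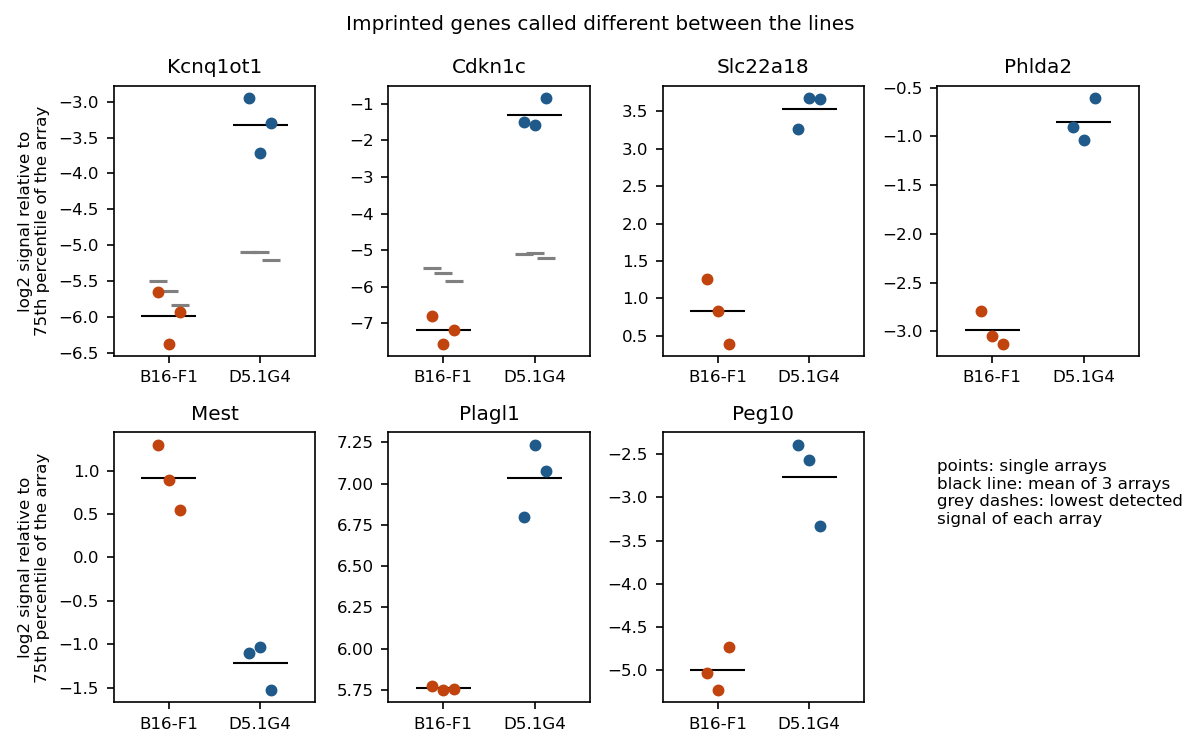
Log2 signal relative to the 75th percentile of the array (y axis, own scale in each panel) for the 7 called imprinted genes, with B16-F1 left of D5.1G4, a point for each array, a black line for the mean of 3 arrays and grey dashes for the lowest detected signal of each array (Cdkn1c and Kcnq1ot1 only). The arrays of the lines do not overlap for any of the 7 genes, which were chosen by their calls. The lines also did not overlap for 50.7% of all features measured on all arrays, and for 12 of the 23 tested imprinted genes. For Cdkn1c the B16-F1 points, from -7.55 to -6.80, lie below the dashes.

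The neighbours of the domain were then read in gene order, over an interval chosen after these values had been seen. From Igf2 to Phlda2, 13 genes were tested, of which 0 were called higher and 6 lower. The 6 include the 4 members already called, of which Cdkn1c and Kcnq1ot1 were tested through D5.1G4 arrays alone. This count therefore supports nothing about the region. Of the 7 tested genes inside that are not members, 0 were called higher and 2 lower, where 8.89% of all features were called lower. These 2 were R74862 (-1.07) and Cd81 (-1.04), a tetraspanin of the cell surface. The Cd81 difference dropped under 2-fold when replicate 2 of B16-F1 (-0.996) or of D5.1G4 (-0.97) was left out, and with quantile normalization (-0.78) or the authors' values (-0.77). On the Igf2 side of the interval, Igf2, Ins2, Th, Ascl2 and Tspan32 were not called, with differences from -0.18 to 0.49, and between Cd81 and Kcnq1 neither Tssc4 (-0.38) nor Trpm5 (-1.94, SE 0.62, adjusted p = 0.0534) was called. Beyond Phlda2, Nap1l4 was not called (0.62, SE 0.37), while Cars, a cysteinyl-tRNA synthetase, and Osbpl5, an oxysterol-binding protein, fell by 1.29 (SE 0.20) and 1.41 (SE 0.24). Without the arrays of scan 1, which leaves 1 B16-F1 array, the differences were -0.96 for Cd81, -1.08 for Cars (adjusted p = 0.0765) and -1.01 for Osbpl5 (adjusted p = 0.1), and none of these was called. Over the 20 flanking genes with a probe, 15 were tested, with 0 called higher and 3 lower, Lsp1 (-4.45) among them. Over the whole of chromosome 7, 10.8% of 1088 tested genes were called lower.

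Igf2, the fetal growth factor at the other end of this region, lay near the limit of detection. Its values were -5.44, -5.04 and -5.34 in B16-F1, above background on 3 arrays, and -6.86, -5.27 and -5.16 in D5.1G4, above background on 0 arrays. The groups overlapped and the difference was not called (0.49, SE 0.46, adjusted p = 0.453). Leaving out D5.1G4 replicate 1 gave -0.061. Igf2r, the receptor that clears IGF2 from the cell surface, was 3.32, 3.17 and 3.01 in B16-F1, against 3.60, 3.73 and 3.49 in D5.1G4. The lines did not overlap, which was so for 50.7% of all features with 6 values, but the difference of -0.44 (SE 0.13, adjusted p = 0.044) was under 2-fold. Airn, the non-coding RNA that silences Igf2r on the paternal chromosome, gave -1.57, -1.83 and -2.06 in B16-F1, against -1.93, -2.08 and -1.94 in D5.1G4. These values overlapped (0.17, SE 0.15, adjusted p = 0.443), and a second Airn probe gave 0.69 (SE 0.19).

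**Figure D3:**
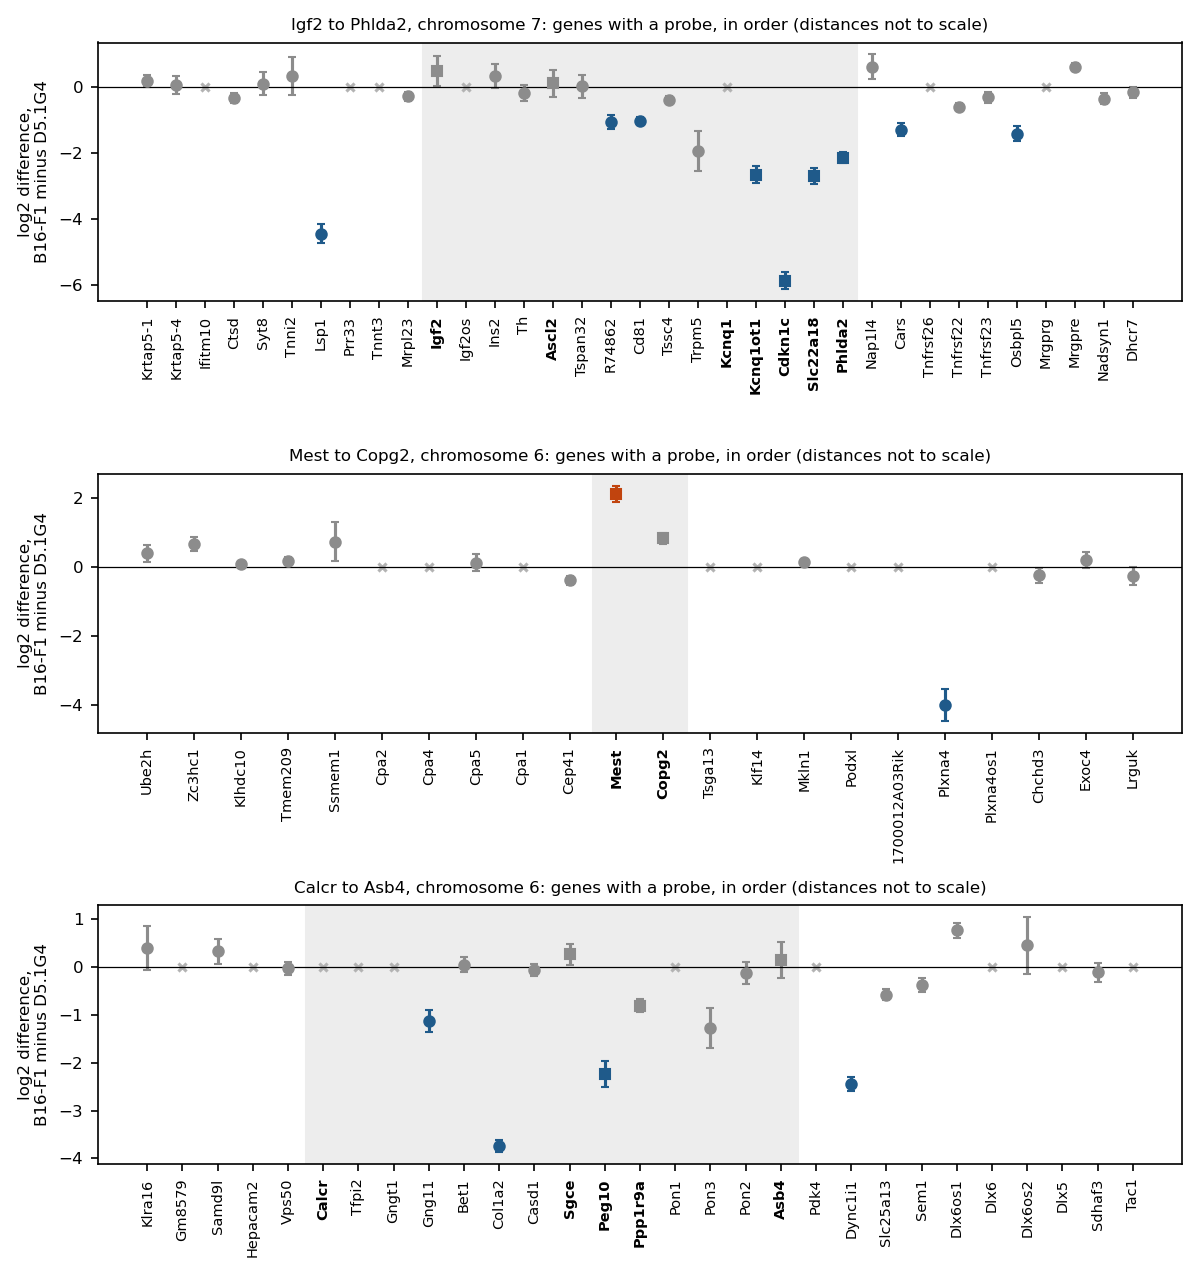
Log2 difference (B16-F1 minus D5.1G4, y axis, bars for the SE) of genes with a probe in their order along the chromosome (x axis, distances not to scale) around 3 imprinted domains, shaded between their outermost members, with members as squares and in bold, genes called higher in red and lower in blue, uncalled genes in grey and crosses at 0 for genes not tested. From Igf2 to Phlda2, 6 genes are called lower and 0 higher, of which 4 are members already called and 2 are not members. In the middle panel Mest stands at 2.13 beside Copg2 at 0.83.

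Mest, a paternally expressed member of the alpha/beta hydrolase family, was the imprinted gene that rose. Its level was 1.30, 0.89 and 0.54 in B16-F1, against -1.10, -1.04 and -1.53 in D5.1G4, with no overlap. The fold was 4.38 in favour of B16-F1, a log2 difference of 2.13 (SE 0.24, adjusted p = 0.0013). All 3 of its probes gave the same direction, at 2.13, 1.89 and 2.58, the last of them not above background in D5.1G4. Copg2, a coat protein gene that meets Mest tail to tail, was 1.51, 1.39 and 1.37 in B16-F1 and 0.54, 0.35 and 0.89 in D5.1G4. Its values did not overlap, but the difference of 0.83 (SE 0.16, adjusted p = 0.0102) was under 2-fold, and its other probe gave 0.75. Of 12 genes tested among the 20 that flank the pair, 0 were called higher and 1, Plxna4, lower (-3.997). Within scan 2 the Mest difference was 2.58.

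In the Peg10-Sgce domain on chromosome 6, 1 of 4 tested members fell, where 8.89% of all features were called lower. Peg10, a paternally expressed gene derived from a retrotransposon and required for the placenta, gave -5.04, -5.23 and -4.74 in B16-F1, against -2.39, -2.56 and -3.34 in D5.1G4. There was no overlap, all 6 arrays were above background, and Peg10 fell by 2.24 on the log2 scale, or 4.72-fold (SE 0.28, adjusted p = 0.00193). The B16-F1 values lay near the lowest detected signals of those arrays, which were -5.50, -5.63 and -5.83. A second Peg10 probe was above background on 1 B16-F1 array and on 0 D5.1G4 arrays and was not tested. With normexp the call was lost (-0.89, adjusted p = 0.332).

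Sgce, the epsilon-sarcoglycan gene that shares a divergent start region with Peg10, was 3.20, 3.08 and 2.97 in B16-F1, against 2.34, 3.07 and 3.04 in D5.1G4. These values overlapped, and Sgce was not called (0.27, SE 0.22, adjusted p = 0.387). Ppp1r9a, the actin-binding protein neurabin, was lower in every B16-F1 array, at 1.50, 1.66 and 1.32 against 2.40, 2.22 and 2.27 in D5.1G4, but by less than 2-fold (-0.80, SE 0.13, adjusted p = 0.0054). Asb4, a component of ubiquitin ligases, gave -5.06, -4.09 and -5.43 in B16-F1, against -4.63, -5.14 and -5.25 in D5.1G4, and the lines overlapped (0.15, SE 0.37). It was above background on 3 B16-F1 arrays and 1 D5.1G4 array. Calcr, the calcitonin receptor gene, was not above background on any array. Among 6 tested genes that lie between Calcr and Asb4 and are not members, Gng11 (-1.13) and Col1a2 (-3.74) were called lower. Over the whole of chromosome 6, which also holds Mest, 11.5% of 670 tested genes were called lower and 4.33% higher.

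Plagl1, a paternally expressed zinc finger transcription factor that activates other imprinted genes, had its brightest probe at 5.77, 5.75 and 5.76 in B16-F1, against 6.80, 7.24 and 7.08 in D5.1G4. The groups did not overlap, and the gene was lower in B16-F1 by 2.42-fold (log2 difference -1.28, SE 0.14, adjusted p = 0.00127). The 4 Plagl1 probes disagreed. A second bright probe gave -1.14 (SE 0.14), whereas 2 dim probes, above background on all arrays, gave 0.0076 (SE 0.25) and 0.40 (SE 0.60). The call was lost with the mean over the probes (-0.50, adjusted p = 0.136), and the difference fell short of 2-fold with quantile normalization (-0.95) and with the authors' values (-0.94).

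**Figure D4:**
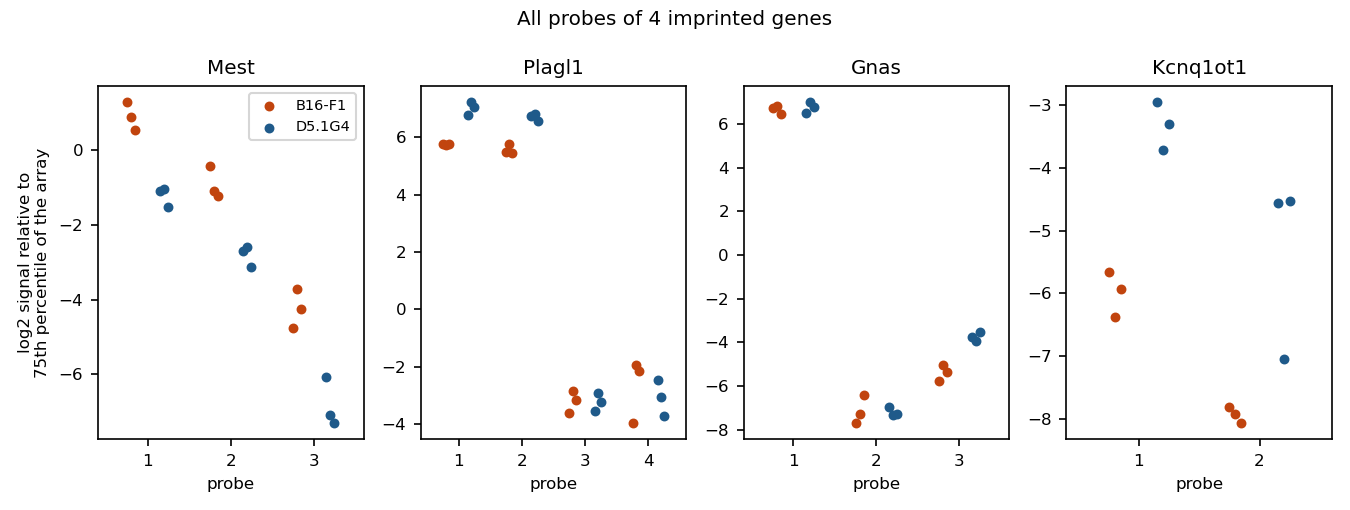
Log2 signal relative to the 75th percentile of the array (y axis) for each probe (x axis, with the probe that stands for the gene as number 1) of Mest, Plagl1, Gnas and Kcnq1ot1, with B16-F1 arrays left of D5.1G4 arrays. B16-F1 lies above D5.1G4 for all 3 Mest probes, while among the Plagl1 and Gnas probes the lines separate for the first 2 of Plagl1 and for number 3 of Gnas.

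Gnas, which encodes the stimulatory G protein alpha subunit and further transcripts of differing imprint, was not called on its brightest probe. That probe gave 6.71, 6.82 and 6.43 in B16-F1, against 6.51, 7.004 and 6.79 in D5.1G4, and the lines overlapped (-0.11, SE 0.18, adjusted p = 0.651). A dim probe of another Gnas accession gave -5.76, -5.05 and -5.34 in B16-F1, against -3.76, -3.93 and -3.55 in D5.1G4. This second signal did not overlap between the lines (-1.64, SE 0.21), and its p-value over all probes above background on at least 3 arrays was 0.00211 after adjustment. The remaining Gnas probe was not above background on any array.

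Genes of the Prader-Willi and Angelman region were weak or uncalled. Ube3a, a ubiquitin ligase, was -0.17, -0.17 and -0.13 in B16-F1, against 0.56, 0.32 and 0.18 in D5.1G4, a separation of less than 2-fold (-0.51, SE 0.13, adjusted p = 0.028). The paternally expressed gene Ndn, which encodes the growth suppressor necdin, gave -4.76, -3.61 and -5.02 in B16-F1, against -5.16, -4.11 and -4.15 in D5.1G4 (0.0089, SE 0.45). Mkrn3, a ring finger gene, gave -5.46, -3.56 and -3.77 in B16-F1, against -3.16, -4.49 and -3.85 in D5.1G4 (-0.43, SE 0.58). The lines overlapped for both genes, and neither was called. Magel2, a partner of ubiquitin ligases, gave -5.22, -3.52 and -5.08 in B16-F1, against -6.54, -5.17 and -5.33 in D5.1G4, again with overlap (1.07, SE 0.57). It was above background on 3 B16-F1 arrays and 0 D5.1G4 arrays, and was not called (adjusted p = 0.198). Its difference was 0.031 with scan as a block. Snrpn, which encodes a splicing protein, was not above background with any of its 3 probes.

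Dlk1, the membrane protein of the Dlk1-Dio3 domain on chromosome 12, was above background on all arrays. It gave -5.29, -3.74 and -3.93 in B16-F1, against -4.02, -4.57 and -4.74 in D5.1G4, with overlap and no call (0.12, SE 0.44, adjusted p = 0.852). Meg3, the non-coding RNA of this domain, was above background on 1 array of each line, at -3.63 on B16-F1 replicate 1 and -2.98 on D5.1G4 replicate 2. Its values on the other 4 arrays lay between -8.06 and -7.31, and it was not tested. The other Meg3 probes were not above background on any array. Both arrays with a Meg3 signal above background belong to scan 2, and the part of the scan was not tested. Dio3, a deiodinase that inactivates thyroid hormone, had no value on D5.1G4 replicate 1, whose spot carried the scanner's detection mark but was dropped as non-uniform or outlying, and was not detected on the other 5 arrays.

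The last tested members, Mcts2 and Impact, were not called. Mcts2, a retrogene, was 2.08, 2.12 and 1.92 in B16-F1, against 2.39, 2.76 and 2.60 in D5.1G4 (-0.54, SE 0.14, adjusted p = 0.0272). Impact, a regulator of translation under amino acid starvation, gave 1.97, 1.80 and 1.63 in B16-F1, against 1.89, 1.80 and 1.84 in D5.1G4. It overlapped between the lines (-0.042, SE 0.12, adjusted p = 0.816), whereas Mcts2 was lower on every B16-F1 array by less than 2-fold.

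Of the 14 members with a probe that were not tested, 9 were not well above background on any array with any probe. These were Usp29, Grb10, Calcr, Kcnq1, Snrpn, Nap1l5, Slc38a4, Zrsr1 and Inpp5f. Peg3 and Nnat were above background on 2 B16-F1 arrays each and Zim1 on 1, with 0 D5.1G4 arrays for all 3. For Peg3 and Nnat these were replicates 2 and 3, the arrays of scan 1 with the most spots above background, and the part of the scan in this pattern was not tested. The Peg3 values were -7.47, -5.11 and -5.50 in B16-F1, against -6.15, -6.79 and -7.18 in D5.1G4, and overlapped.

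Beyond the members, a list of 53 further mouse genes with reported imprinting held 30 tested genes, of which 2 rose and 3 fell. Its share of calls, 16.7%, was near the 15.2% of all features. The genes that fell, Osbpl5, Cars and Cd81, all belong to the region around the Kcnq1 domain described above. The list also holds other genes of that region that were tested and not called. These were Ins2, Th, Tspan32, Tssc4, Trpm5, Nap1l4, Tnfrsf22, Tnfrsf23 and Dhcr7. The genes that rose lie on chromosome 17. Qpct, the glutaminyl cyclase gene, gave 1.63, 1.43 and 1.42 in B16-F1, against -4.68, -4.71 and -4.46 in D5.1G4, a log2 difference of 6.11 (SE 0.13). Pde10a, a phosphodiesterase, was not above background in D5.1G4 and stood at least 10.5-fold higher in the B16-F1 arrays (adjusted p = 3.81e-05). Over 16 alternative settings the Pde10a log2 difference lay between 2.46 and 5.48. The bound, 3.39 on the log2 scale, therefore holds for the main processing only.

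Of factors that set or keep imprints, none was called. Of 27 listed, 24 were tested with limma and 0 were called, against 15.2% of all features. At an unadjusted p under 0.05 there were 7, and at an adjusted p of 0.05 or less 5 (34.9% of all features), namely Arid4a, Eed, Ehmt1, Ezh2 and Tet2, each under 2-fold. The maintenance methyltransferase gene Dnmt1 differed by 0.080 (SE 0.11), its partner Uhrf1 by -0.22 (SE 0.12), and the repressor Trim28 by 0.00097 (SE 0.12). Zfp57, which binds methylated imprint control regions, differed by -0.66 (SE 0.22, adjusted p = 0.0568), and Tet2, a methylcytosine oxidase, by -0.98 (SE 0.23, adjusted p = 0.0208). The germ line factor Dppa3 was not above background on any array.

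In the list of IGF2 receptors, binding and signalling genes, 2 of 13 tested rose and 3 fell, or 38.5% called, against 15.2% of all features. Igf2bp1 was tested through its B16-F1 arrays alone, so the share supports nothing about the list. Igf2bp1, an RNA-binding protein named for its binding of Igf2 mRNA, was -1.05, -1.07 and -1.37 in B16-F1 and not above background in D5.1G4 (-5.36, -5.40 and -5.54), and was at least 15.7-fold higher (adjusted p = 2.43e-05). Over 16 alternative settings the Igf2bp1 log2 difference lay between 2.59 and 4.42. The bound, 3.97 on the log2 scale, therefore holds for the main processing only. Relatives of Igf2bp1, namely Igf2bp3 and Igf2bp2, moved the other way. Igf2bp3 gave -2.73, -3.05 and -3.02 in B16-F1, against -0.80, -0.76 and -0.67 in D5.1G4, and fell by 2.19 (SE 0.13). Igf2bp2 fell by 1.27 (SE 0.21), a call lost with scan as a block (-0.85, adjusted p = 0.0732) and with normexp (-0.81). Igf1r, the receptor through which IGF2 signals, gave -0.56, -0.47 and -0.61 in B16-F1, against 1.39, 1.23 and 0.91 in D5.1G4, and fell by 1.72 (SE 0.15, adjusted p = 0.000591). The binding protein gene Igfbp4 rose by 1.45 (SE 0.22), and by 1.47 without the arrays of scan 1, where 1 B16-F1 array is left and the adjusted p was 0.0699.

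Among cyclin-dependent kinase inhibitors and their G1 partners, where Cdkn1c acts, 1 of 10 tested genes rose and 3 fell. This made 40.0% called, against 15.2% of all features. The list was chosen with earlier results of these data known, so this share supports nothing about it. The relatives of Cdkn1c, Cdkn1a and Cdkn1b, differed by 0.24 (SE 0.11) and -0.71 (SE 0.15), neither called. Cdkn2d and Cdkn2c, inhibitors of CDK4 and CDK6, fell by 1.34 (SE 0.13) and 1.26 (SE 0.20, on 2 D5.1G4 arrays after an outlying spot was dropped), and cyclin E1 (Ccne1) by 1.33 (SE 0.13). Cdkn2c stayed past 2-fold but was not called with scan as a block (-1.07, adjusted p = 0.0566) or without the arrays of scan 1 (-1.33, adjusted p = 0.0875), and Ccne1 was not called with the mean over its probes (-0.84). Cdk2 rose by 1.27 (SE 0.31), a call lost when B16-F1 replicate 2 or 3 or D5.1G4 replicate 2 or 3 was left out, with adjusted p-values from 0.0689 to 0.0801, and without the arrays of scan 1 (adjusted p = 0.259).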

How the data were processed

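Signals came from deposited Agilent Feature Extraction 11.0.1.1 output of 6 one-colour Cy3 arrays annotated on mm9, per the file headers. The deposited intensity had its background subtracted and detrended within the array and its low values replaced by a surrogate, per the file headers, with no step between arrays. The authors' processed table holds log2 values, and the sources used here do not give their normalization. The deposited files also carry other columns, flags of 0 or 1 for detection and outlying spots, per the file headers.

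The log2 intensity minus the 75th percentile of the array was averaged over spots of a probe, without non-uniform or outlying spots (0.674% to 1.58% of an array). No spot was saturated. A probe was above background on an array when all its spots were. Of 39429 probes, 27234 matched a gene through unversioned accessions in the RefSeq table of GRCm38.p6, used for names and gene order, and 12195 matched none and stood alone. The probe with the highest mean stood for its gene. Features above background on at least 3 arrays were fitted with limma 3.58.1 in R 4.3.3 (lmFit, eBayes), with a single term for the line, and p-values were adjusted by Benjamini-Hochberg across every feature tested. Unless another setting is named, adjusted p-values are from this 2-sided test with n = 3 arrays in each line (2 D5.1G4 arrays for Cdkn2c). A fit that leaves 1 array in a line takes its spread from the other arrays. Detection marks were counted on dropped spots too. The fit was tested on simulated data. The number of arrays limits the precision. The members and lists were chosen with earlier results of these data known. Every member is accounted for, and from each list the called genes with the largest differences, at most 6, are named; other genes named complete a count or were chosen after their values were seen. The planned normexp correction used the median signals of spot and background, since the files hold no mean spot signal.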

Additional observations from a re-analysis of the deposited data

How the results depend on the processing

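Results were recomputed with other background corrections, normalizations, filters, probe rules and blocks, without each array in turn, and, chosen after seeing the data, without both arrays of scan 1. The features called numbered 1252 in place of 2798 with normexp, which adds an offset of 50 intensity units before the log, and 4 in place of 7 imprinted genes and 2 in place of 4 Kcnq1 domain genes were then called. Cdkn1c, Kcnq1ot1 and Peg10 are the genes lost. With only features above background on all 6 arrays, 2 Kcnq1 domain genes were called, since Cdkn1c and Kcnq1ot1 are then not tested. Leaving out 1 array gave 2530 to 3375 features and kept the count of imprinted genes at 7. With the replicate block 2583 features and 7 imprinted genes were called, and of the called genes of the member and other lists Cdk2 alone lost its call (adjusted p = 0.0854). Same-numbered arrays did not deviate together from their line means (r over features of -0.39, -0.027 and -0.30), so the replicate numbers were not taken as pairs. Mest, Slc22a18 and Phlda2 kept their calls in all 17 alternatives.

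Directions turned only among uncalled members. With scan as a block, as within scan 2, Igf2 was at -0.23, Dlk1 at -0.64, Ascl2 at -0.94, Ndn at -0.63 and Impact at 0.14. Without the arrays of scan 1, Dlk1 was at -0.85, Asb4 at -0.053, Ascl2 at -0.81, Ndn at -0.29 and Impact at 0.12. Quantile normalization gave -0.0032 for Asb4, -0.054 for Ascl2, -0.11 for Ndn and 0.26 for Gnas, and the authors' values gave -0.032 for Ascl2, -0.089 for Ndn and 0.27 for Gnas. Leaving out 1 array gave -0.061 to 0.79 for Igf2, -0.17 to 0.61 for Dlk1, -0.24 to 0.43 for Asb4, -0.17 to 0.57 for Ascl2, -0.42 to 0.29 for Ndn, -0.79 to 0.17 for Mkrn3, -0.12 to 0.042 for Impact and -0.24 to 0.0049 for Gnas. The cause was not tested. The median of all features was -0.15 with scan as a block and -0.17 without a filter.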
